A study of Mus musculus with 4 samples.

Results

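The genes described are 10 genes of neutrophils and immature myeloid cells, chosen by name: Mpo, Ltf, Ngp and Camp for granule proteins, S100a8, S100a9 and Retnlg for calprotectin and a secreted resistin-like protein, and Ly6g, Itgam and Csf3r for proteins of the cell surface. They were looked up by gene symbol among the 22180 genes of the array table, and each of the 10 had exactly 1 probe set. The samples were stomach tissue from mice of the FVB strain at an age of 1 year, with 2 samples labelled Hdc-/- and 2 samples labelled Hdc+/+ and no treatment named for either genotype. The sources used here do not give how the Hdc allele was made. Total RNA was labelled with biotin and hybridised to 1 Affymetrix array per sample, and the deposited values are on the log2 scale, so a difference of 1 is a 2-fold change in signal. The titles number the arrays of each genotype as biological replicates without naming animals or litters, so p-values measure only the spread between these samples.

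Neutrophils are short-lived phagocytes that leave the bone marrow with their granules already filled. Granule proteins are made in order during maturation, with myeloperoxidase at the promyelocyte stage and lactoferrin, cathelicidin and the mouse protein Ngp later, so their mRNA marks maturing cells, whereas the receptor and adhesion genes stay active in mature cells. In mice, immature myeloid cells that carry CD11b and Ly6G express histidine decarboxylase, the histamine-forming enzyme that Hdc encodes, which is the reason to look at these genes in this comparison.

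The arrays were alike in scale, with gene medians from 4.56 to 4.60. The summed linear signal of 10 genes of glandular stomach epithelium was 46405 and 47087 on Hdc-/- arrays 1 and 2, against 46477 and 42051 on Hdc+/+ arrays 1 and 2. Such a sum is carried by its brightest genes and cannot show whether other tissue was present. Hdc itself read 3.77 and 4.06 on the Hdc-/- arrays, against 3.99 and 3.82 on the Hdc+/+ arrays, a log2 difference of 0.01 (SE 0.19, limma adjusted p = 0.997). It is unknown here whether its probes cover the deleted part, so the genotype labels rest on the titles alone. Markers of other tissues differed between arrays. Mast cell markers summed to 1959 on Hdc-/- array 1 and 294 on Hdc-/- array 2, against 373 and 442 on the Hdc+/+ arrays. All 8 hepatocyte markers measured were lower on both Hdc-/- arrays than on either Hdc+/+ array, and brightest on Hdc+/+ array 2. Their sums were 562 and 751 on the Hdc-/- arrays, against 4574 and 12888.5 on Hdc+/+ arrays 1 and 2. Hepatocyte signal thus followed genotype on these arrays, and its source was not tested.

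The sequences around the start sites of 4 of the genes are shown because maturing granulocytes switch on Ltf, Ngp and Camp through the factor C/EBP epsilon, while Retnlg had the largest difference of the 10 genes. Each runs from 250 bases before to 50 bases after the RefSeq start in assembly GRCm38.p6, 5′ to 3′ on the gene's own strand, and capitals mark matches to the C/EBP motif TTNNGNAA on either strand. The windows are chr9:111019042-111019341 (plus strand, Ltf), chr9:110419558-110419857 (plus strand, Ngp), chr9:109849407-109849706 (minus strand, Camp) and chr16:48872358-48872657 (plus strand, Retnlg).
Ltf: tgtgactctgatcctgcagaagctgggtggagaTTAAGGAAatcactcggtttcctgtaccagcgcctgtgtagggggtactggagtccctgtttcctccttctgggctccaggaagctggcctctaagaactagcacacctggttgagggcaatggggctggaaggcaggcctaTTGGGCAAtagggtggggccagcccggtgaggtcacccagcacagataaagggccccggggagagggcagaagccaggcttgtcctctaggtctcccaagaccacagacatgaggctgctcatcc
Ngp: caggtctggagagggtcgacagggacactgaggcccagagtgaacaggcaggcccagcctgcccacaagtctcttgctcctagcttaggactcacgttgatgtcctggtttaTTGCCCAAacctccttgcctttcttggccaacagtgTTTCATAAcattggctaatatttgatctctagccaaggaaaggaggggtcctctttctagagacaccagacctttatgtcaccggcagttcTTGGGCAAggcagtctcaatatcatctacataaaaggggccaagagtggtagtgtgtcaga
Camp: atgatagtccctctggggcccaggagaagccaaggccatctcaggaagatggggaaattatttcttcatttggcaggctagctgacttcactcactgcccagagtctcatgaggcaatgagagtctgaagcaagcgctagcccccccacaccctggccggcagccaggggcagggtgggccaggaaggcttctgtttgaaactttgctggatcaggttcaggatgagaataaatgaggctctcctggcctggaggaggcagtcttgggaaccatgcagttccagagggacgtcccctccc
Retnlg: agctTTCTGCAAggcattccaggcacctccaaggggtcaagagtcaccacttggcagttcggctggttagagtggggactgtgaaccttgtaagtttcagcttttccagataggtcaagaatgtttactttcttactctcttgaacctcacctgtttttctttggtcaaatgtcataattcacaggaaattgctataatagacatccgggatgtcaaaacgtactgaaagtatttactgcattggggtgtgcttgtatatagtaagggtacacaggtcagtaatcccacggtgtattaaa
Ltf held 2 matches, Ngp 3, Retnlg 1 and Camp 0. All 10 genes matched the RefSeq promoter table, and 7 of them held the motif at least once, against 40.7% of all 32851 windows of that length. The motif GAGGAAG of PU.1, a factor of the myeloid lineage, was held by 5 of the 10 genes, against 13.6% of all windows; matches of the 2 motifs may overlap, as they do after the start site of Itgam. These matches describe letters in a window and say nothing of binding in these samples.

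None of the 10 genes passed the test between genotypes. With p-values adjusted by Benjamini-Hochberg over the 22180 genes and a threshold of 0.05, limma called 0 members higher and 0 lower on the Hdc-/- arrays, against a background of 1 gene higher (0.00451%) and 0 genes lower (0%). The gene called was H2-Ea, an antigen presentation gene named here after its value was seen. It read 7.65 and 7.47 on the Hdc-/- arrays, against 3.36 and 3.02 on the Hdc+/+ arrays. Whether the mice of the 2 genotypes also differed at loci other than Hdc was not tested. At an unadjusted p under 0.05, 3 members were higher (Ltf, Retnlg and Itgam), where 3.68% of all genes were, and 0 were lower, where 4.87% of all genes were. The genotypes did not overlap for 6 members, 3 higher against a background of 21.5% and 3 lower (Mpo, S100a8 and Csf3r) against a background of 17.6%. A log2 difference of at least 1 was reached upward by 2 members, Ltf and Retnlg, where 0.649% of all genes reached it, and downward by 0 members, where 2.11% did. The median difference over the 10 genes was -0.08, beside 0.02 over all genes. In whole tissue, fewer cells of a type and less RNA per cell cannot be told apart. An exact permutation test of a single gene cannot give a p below 0.333 with 2 arrays against 2.

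**Figure D1:**
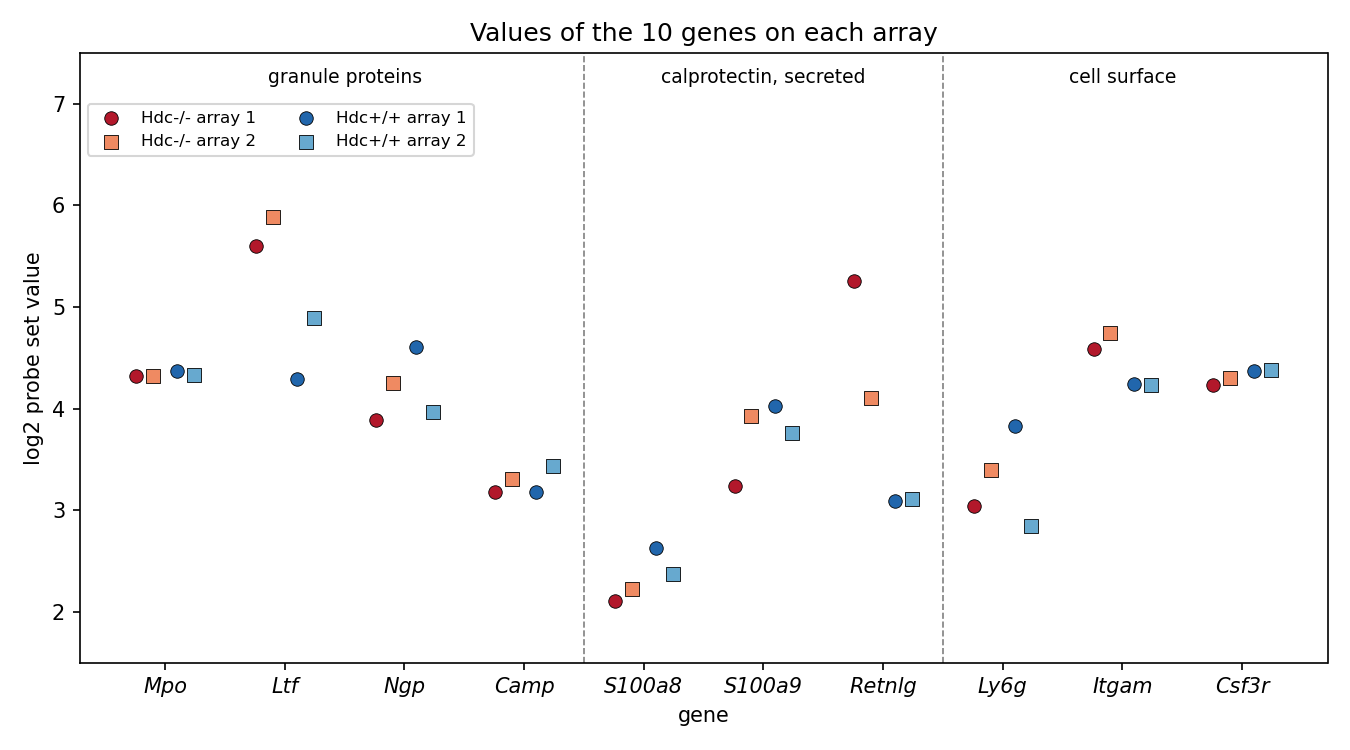
Log2 probe set values (vertical axis) of the 10 genes on the 4 arrays, with Hdc-/- arrays in red and orange and Hdc+/+ arrays in blue, grouped by the kind of protein. Ltf, Retnlg and Itgam lay higher on both Hdc-/- arrays than on either Hdc+/+ array. Among Itgam, Mpo, Camp, S100a8 and Csf3r, the widest range over the 4 arrays was 0.52, that of S100a8.

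Among the granule genes, Ltf stood higher on the Hdc-/- arrays and the other 3 did not. Ltf (Entrez gene 17002) encodes lactoferrin, the iron-binding protein of secondary granules, which glandular epithelia also secrete. It read 5.60 and 5.89 on the Hdc-/- arrays, against 4.29 and 4.89 on the Hdc+/+ arrays. The genotypes did not overlap, the lowest Hdc-/- array lying 0.71 above the highest Hdc+/+ array. The log2 difference was 1.15 (SE 0.25, 95% interval 0.53 to 1.78), or 2.22-fold, and it did not pass over all genes (limma adjusted p = 0.359). It lay at the 99.6th percentile of the differences of all genes.

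Mpo (17523) encodes myeloperoxidase, the enzyme of primary granules that makes hypochlorous acid. It read 4.32 and 4.32 on the Hdc-/- arrays, against 4.37 and 4.33 on the Hdc+/+ arrays. Its whole range over the 4 arrays was 0.05, at the 0.273th percentile of the ranges of all genes, and the difference was -0.03 (SE 0.16, 95% interval -0.42 to 0.36, adjusted p = 0.982). Ngp (18054), which encodes neutrophilic granule protein, a relative of the cathelicidins, read 3.88 and 4.25 on the Hdc-/- arrays, against 4.60 and 3.97 on the Hdc+/+ arrays. The genotypes overlapped, and the difference was -0.22 (SE 0.27, 95% interval -0.89 to 0.44, adjusted p = 0.872). Camp (12796) encodes cathelicidin, the precursor of an antimicrobial peptide. It read 3.17 and 3.31 on the Hdc-/- arrays, against 3.17 and 3.43 on the Hdc+/+ arrays, so the genotypes overlapped, with a difference of -0.06 (SE 0.18, 95% interval -0.51 to 0.38, adjusted p = 0.963). These unadjusted intervals leave room for a Mpo ratio from 0.75- to 1.28-fold, a Ngp ratio from 0.54- to 1.36-fold and a Camp ratio from 0.70- to 1.30-fold. Whether Ltf differed from these genes was not tested.

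Retnlg had the largest difference of the 10, and the calprotectin genes S100a8 and S100a9 read lower rather than higher. Retnlg (245195) encodes a secreted cysteine-rich protein of the resistin-like family that mouse neutrophils make. It read 5.25 and 4.10 on the Hdc-/- arrays, against 3.09 and 3.11 on the Hdc+/+ arrays. The Hdc-/- arrays lay 1.15 apart and the Hdc+/+ arrays 0.01 apart, and the groups did not overlap. The log2 difference was 1.58 (SE 0.38, 95% interval 0.64 to 2.51), or 2.98-fold, and did not pass (adjusted p = 0.396). It was 1.00 without Hdc-/- array 1 and 2.15 without Hdc-/- array 2, and Retnlg read higher on the array with the high mast cell markers, whose part in the result was not tested. Retnlg and Ly6g both belong to families of similar genes, so their signal could include that of relatives.

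S100a8 (20201) and S100a9 (20202) encode the 2 chains of calprotectin, a zinc- and manganese-binding complex that fills the neutrophil cytosol and that squamous epithelium also makes. S100a8 read 2.10 and 2.23 on the Hdc-/- arrays, against 2.63 and 2.37 on the Hdc+/+ arrays. The genotypes did not overlap, but the gap between the nearest arrays was 0.14, and the difference of -0.33 did not pass (SE 0.18, 95% interval -0.77 to 0.11, adjusted p = 0.655). S100a9 read 3.24 and 3.92 on the Hdc-/- arrays, against 4.02 and 3.76 on the Hdc+/+ arrays. These values overlapped, with a difference of -0.31 (SE 0.27, 95% interval -0.98 to 0.36, adjusted p = 0.806). Over all genes, 17.6% were lower on both Hdc-/- arrays than on either Hdc+/+ array. Of the 15 markers of stratified squamous epithelium that were measured, 13 were so and 2 overlapped. Their summed linear signal was 1835 and 2121 on the Hdc-/- arrays, against 3724 and 3615 on the Hdc+/+ arrays. The part of squamous tissue in the calprotectin values was not tested.

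Of the surface genes, Itgam read slightly higher on the Hdc-/- arrays, and Csf3r and Ly6g did not. Itgam (16409) encodes CD11b, the integrin alpha chain that neutrophils, monocytes and macrophages share. It read 4.58 and 4.74 on the Hdc-/- arrays, against 4.24 and 4.23 on the Hdc+/+ arrays. The groups did not overlap, and the log2 difference was 0.43 (SE 0.16, 95% interval 0.02 to 0.83), or 1.34-fold, with an adjusted p of 0.565 by limma. Of 6 markers shared by leukocytes, 4 were higher on the Hdc-/- arrays without overlap and 2 overlapped. Of 14 macrophage and monocyte markers, 6 were higher without overlap, 1 was lower and 7 overlapped, where 21.5% of all genes were higher and 17.6% lower. The part of those cells in the Itgam value was not tested.

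Csf3r (12986) encodes the receptor for G-CSF, the cytokine that drives granulocyte output. It read 4.23 and 4.30 on the Hdc-/- arrays, against 4.37 and 4.38 on the Hdc+/+ arrays, a difference of -0.10 (SE 0.16, 95% interval -0.49 to 0.29, adjusted p = 0.903). Ly6g (546644), the granulocyte antigen by which mouse neutrophils are usually told apart, read 3.04 and 3.39 on the Hdc-/- arrays, against 3.83 and 2.84 on the Hdc+/+ arrays. The Hdc+/+ arrays were both the highest and the lowest, and the difference was -0.12 (SE 0.35, 95% interval -0.99 to 0.75, adjusted p = 0.963). The most cell-specific surface gene of the 3 was thus also the least precisely measured.

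**Figure D2:**
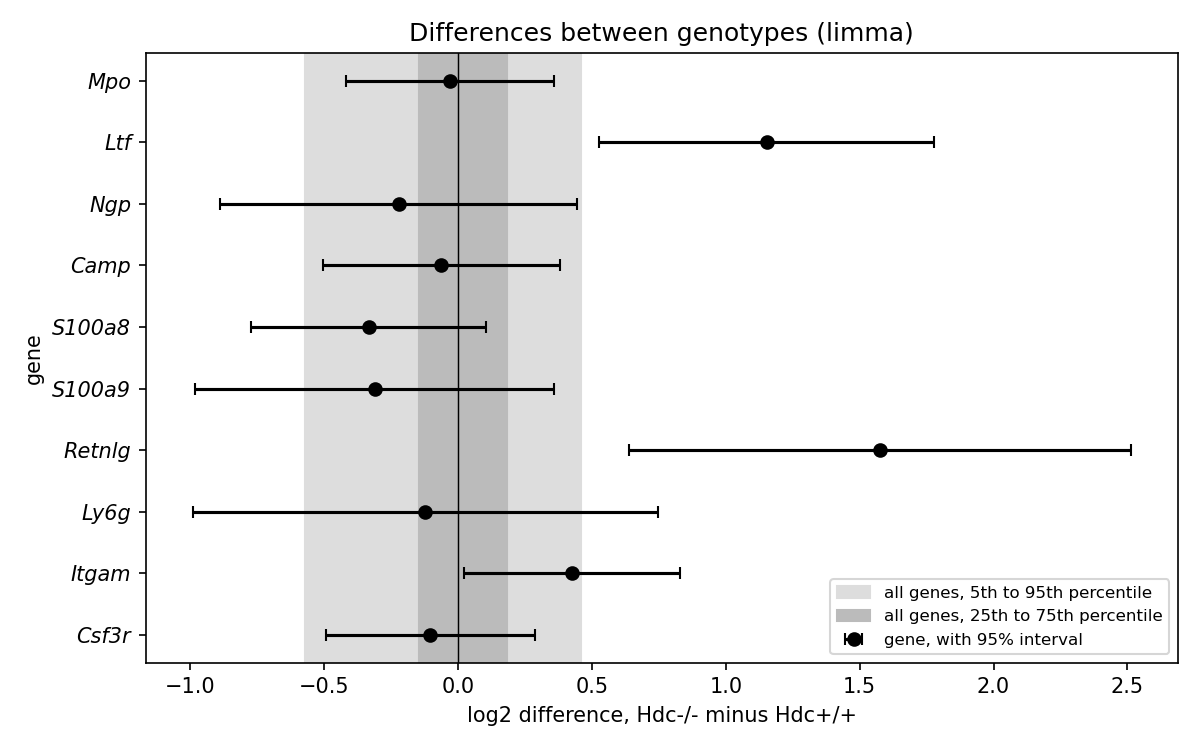
Log2 difference of each gene, Hdc-/- minus Hdc+/+ (horizontal axis), with its 95% interval from limma, over shaded bands for the middle of all 22180 genes. The intervals of Ltf, Retnlg and Itgam lie above 0 before adjustment, and the other 7 include 0.

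The signals of most of these genes were low on every array. As a position in each array's own distribution of gene signals, which depends on probe design as well as on RNA, S100a8 lay at the 6.88th and 7.40th percentile on the Hdc-/- arrays and at the 11.4th and 9.82th on the Hdc+/+ arrays. Mpo, Camp, S100a8, S100a9, Ly6g and Csf3r, 6 of the 10, lay below the gene median on all 4 arrays. By mean signal, 7 members lay above the dimmest 25% of genes, and Ltf alone lay in the brighter 50%. Retnlg lay at the 63.1th and 37.9th percentile on the Hdc-/- arrays, against the 17.2th and 19.4th on the Hdc+/+ arrays, the widest span of any member. Since no background values were used here, it could not be said which of these genes were above background.

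The granule genes were set against the surface genes on each array, after centring every gene on its 4-array mean, because levels of different probe sets cannot be compared. The 4 granule genes averaged 0.01 and 0.20 on Hdc-/- arrays 1 and 2, against -0.13 and -0.08 on Hdc+/+ arrays 1 and 2. The 3 surface genes averaged -0.06 and 0.13 on the Hdc-/- arrays, against 0.13 and -0.20 on the Hdc+/+ arrays. Granule minus surface was therefore 0.07 on both Hdc-/- arrays, against -0.26 and 0.12 on the Hdc+/+ arrays. The Hdc+/+ arrays enclosed both Hdc-/- values, and the difference between genotypes, 0.14, was smaller than the spread between arrays of a genotype (pooled SD 0.19). No p was computed for these averages, since the genes were chosen with results known.

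The averages depended on single genes. With Ltf left out, the other 3 granule genes averaged -0.13 and 0.03 on the Hdc-/- arrays, against 0.12 and -0.02 on the Hdc+/+ arrays, and granule minus surface turned to -0.17 (pooled SD 0.10). With Itgam left out, Ly6g and Csf3r averaged -0.16 and 0.05 on the Hdc-/- arrays, against 0.30 and -0.19 on the Hdc+/+ arrays, and granule minus surface was 0.32 (pooled SD 0.27). In both cases the difference exceeded that SD and the genotypes did not overlap. Without Hdc+/+ array 1 the difference of 0.14 became -0.04, and without Hdc+/+ array 2 it became 0.33. With all 7 genes the difference lay within the spread of the arrays, and its direction without Ltf was opposite to that without Itgam. Ltf and Itgam were picked for this after their values were seen, each being the only gene of its set with a positive difference. Leaving out Ltf therefore had to lower granule minus surface, and leaving out Itgam had to raise it. No conclusion is drawn from these directions or from the lack of overlap.

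**Figure D3:**
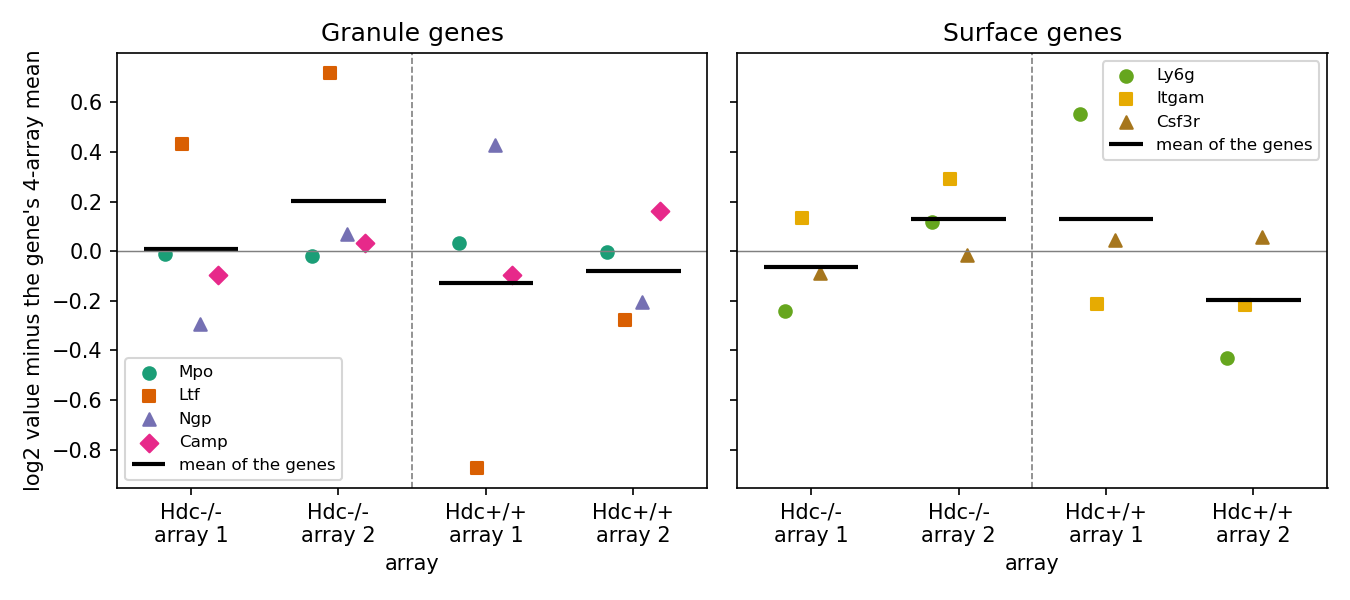
Log2 values of the granule genes (left panel) and surface genes (right panel), each minus the gene's mean over 4 arrays (vertical axis), on the Hdc-/- and Hdc+/+ arrays; bars mark the mean of the genes shown. Ltf gives the highest and the lowest granule points, at Hdc-/- array 2 and Hdc+/+ array 1, and Ly6g spreads most among the surface genes.

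Single arrays decided the sign of 4 of the 10 differences. Without Hdc-/- array 1, Camp differed by 0.00, S100a9 by 0.03 and Ly6g by 0.06, all upward. Without Hdc+/+ array 1, Ngp differed by 0.09 and Ly6g by 0.37, and without Hdc+/+ array 2 Camp differed by 0.07. Ltf stayed between 0.85 (without Hdc+/+ array 1) and 1.45 (without Hdc+/+ array 2), and Itgam between 0.35 and 0.50. Mpo stayed between -0.05 and -0.01, Csf3r between -0.14 and -0.07 and S100a8 between -0.46 and -0.21. At an unadjusted p under 0.05, Ltf and Retnlg were higher with any 1 array left out, where 1.59% to 4.62% of all genes were higher and 3.16% to 4.84% lower. Itgam was so without Hdc-/- array 1 only, and S100a9 was lower without Hdc-/- array 2. With an array left out, its genotype has a lone array that is taken to vary like the other genotype's.

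**Figure D4:**
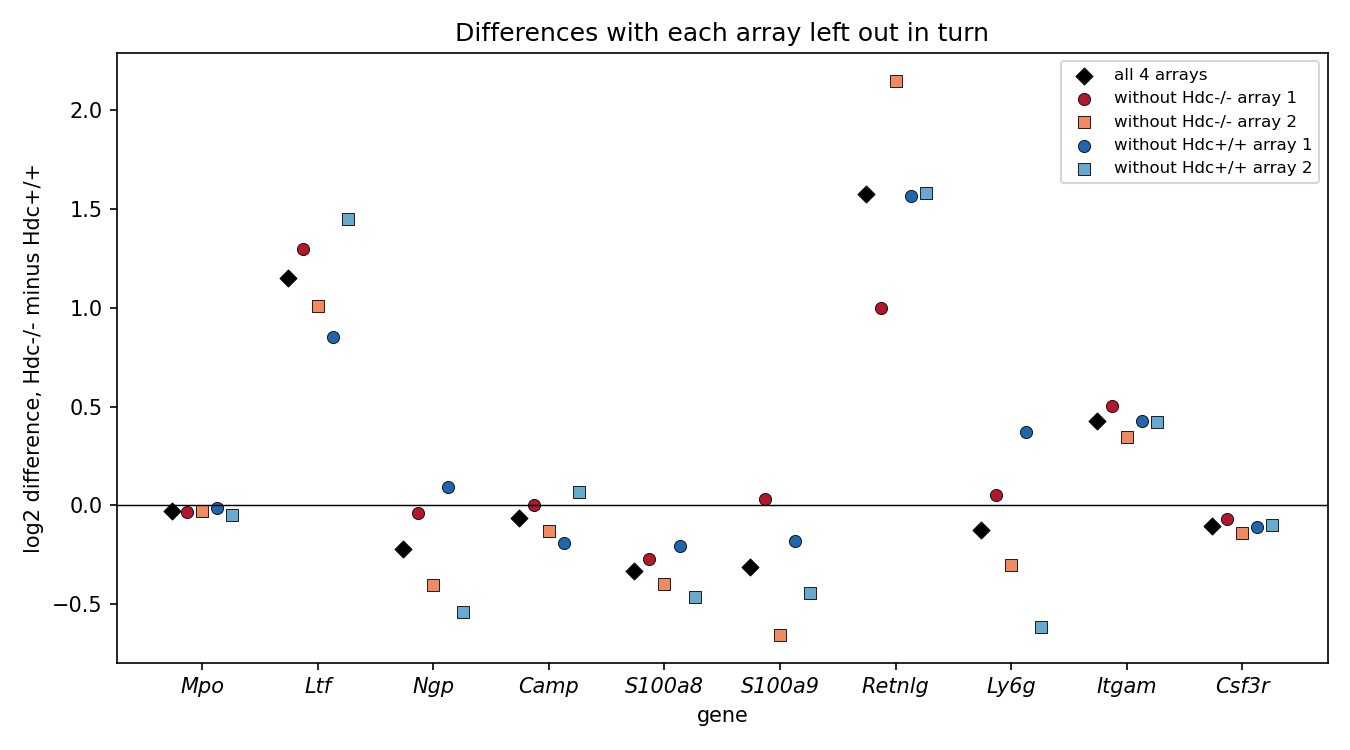
Log2 difference of each gene, Hdc-/- minus Hdc+/+ (vertical axis), with all 4 arrays (black) and with each array left out in turn (colours). Ltf, Retnlg and Itgam stay above 0 throughout, Retnlg between 1.00 and 2.15, while Camp, Ngp, S100a9 and Ly6g cross 0.

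For the 2 members whose values ranged over more than 1 log2 unit, Ltf and Retnlg, the genes with the nearest profile over the 4 arrays were found by root mean square distance between centred values. Nearest to Ltf were Lyz2, the lysozyme gene of macrophages and neutrophils (distance 0.15), followed by Cfap20dc (0.15) and Olfr1331 (0.15). Lyz2 read 8.26 and 8.62 on the Hdc-/- arrays, against 7.30 and 7.84 on the Hdc+/+ arrays, a difference of 0.86 (SE 0.25, adjusted p = 0.456 by limma). Like Ltf, it was highest on Hdc-/- array 2 and lowest on Hdc+/+ array 1. Nearest to Retnlg were Sox9, a transcription factor gene of epithelial progenitors (0.08), Tmem178 (0.14) and H60b (0.17). Sox9 read 8.18 and 7.03 on the Hdc-/- arrays, against 5.86 and 6.06 on the Hdc+/+ arrays. Over 4 arrays, such nearness describes these samples only.

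Other genes of the neutrophil programme were taken from 6 lists of 72 genes, of which 71 were measured. Limma called 0 of the 71 over all genes, and at an unadjusted p under 0.05 there were 3 higher and 7 lower, where 3.68% and 4.87% of all genes were. The genotypes did not overlap for 20 of them upward and 10 downward, against 21.5% and 17.6% of all genes. Their median difference was 0.05, beside 0.02 over all genes.

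The list of other granule proteins (16 genes, median -0.08) held 3 genes lower and 0 higher at the unadjusted threshold, where 4.87% and 3.68% of all genes were. Pglyrp1, a peptidoglycan-binding protein of neutrophil granules, read 6.59 and 6.38 on the Hdc-/- arrays, against 7.55 and 7.55 on the Hdc+/+ arrays, a difference of -1.06 (SE 0.17, adjusted p = 0.263). On the Hdc+/+ arrays it lay at the 91.6th and 90.9th percentile of gene signals, where Mpo lay at the 44.5th on both. Which cells gave the Pglyrp1 signal was not tested. Slpi, a secreted inhibitor of neutrophil elastase that epithelia make in quantity, read 5.58 and 6.02 on the Hdc-/- arrays, against 7.01 and 6.97 on the Hdc+/+ arrays, a difference of -1.19 (SE 0.20, adjusted p = 0.279). Hp, the gene of haptoglobin, which is chiefly a liver product, differed by -2.18 (SE 0.54, adjusted p = 0.400) and was brightest on Hdc+/+ array 2, the array with the highest hepatocyte markers. The genes of the primary granule proteases, stored beside Mpo and named after their values were seen, differed by 0.00 (Elane, SE 0.21), 0.38 (Prtn3, SE 0.21) and -0.13 (Ctsg, SE 0.19).

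Surface receptors other than the members (21 genes measured, median 0.13) held 1 gene higher and 2 lower at the unadjusted threshold, where 3.68% and 4.87% of all genes were. Cxcr4, the receptor that retains neutrophils in marrow, differed by 0.52 (SE 0.17, adjusted p = 0.502). Tlr2, a receptor for bacterial lipoproteins, differed by -1.55 (SE 0.32, adjusted p = 0.342), and C5ar1, the receptor for the complement fragment C5a, by -0.65 (SE 0.23, adjusted p = 0.543). Over all genes, 21.5% were higher on the Hdc-/- arrays without overlap. Of the 6 genes of the oxidative burst and extracellular traps (median 0.28, the highest of the 6 lists), 2 were so and 4 overlapped. Their summed linear signal was 419 and 349 on the Hdc-/- arrays, against 297 and 354 on the Hdc+/+ arrays, so the sums overlapped. The smallest p in that list was that of Ncf1, an oxidase subunit (0.50, SE 0.19, adjusted p = 0.557), with Ncf4 (0.41) and Padi4 (0.23) next by p. None of these passed over all genes.

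Regulators of granulocyte formation (11 genes, median 0.04) included Spi1, the gene of PU.1, which read 5.40 and 5.55 on the Hdc-/- arrays, against 5.06 and 5.02 on the Hdc+/+ arrays, a difference of 0.43 (SE 0.16, adjusted p = 0.560). Csf2, the gene of GM-CSF, differed by 0.40 (SE 0.20) and Cebpb by -0.25 (SE 0.17). Among attractants and inducers (10 genes, median -0.08), the platelet chemokine gene Ppbp differed by -0.87 (SE 0.18, adjusted p = 0.342), Il1b by 0.38 (SE 0.16) and Tnf by 0.22 (SE 0.18). Suppressive myeloid effectors (7 genes, median 0.10) were led by Arg1, the gene of arginase 1, which the liver also makes, with a difference of -1.52 (SE 0.55, adjusted p = 0.543). Nos2 (0.34) and Il4ra (0.32) followed by p. Neither the attractants nor the growth factors held a gene that passed.

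Markers of other cells are given because Itgam, Ltf and S100a8 are not limited to neutrophils. In the macrophage and monocyte list, the median was 0.19 and the summed linear signal 1049 and 1148 on the Hdc-/- arrays, against 730 and 944 on the Hdc+/+ arrays. Its smallest p-values were those of Tyrobp, an adaptor of myeloid receptors (0.85, SE 0.16, adjusted p = 0.293), Adgre1, which encodes the macrophage antigen F4/80 (0.66, SE 0.16, adjusted p = 0.396), and Lyz2. Lyz2 was also the brightest gene of the list and so weighs most in the sum. Of the 14 genes, 9 differed upward and 5 downward, the latter from -0.36 (Mertk) to -0.18 (Cd163). The leukocyte list (median 0.48) summed to 276 and 211 on the Hdc-/- arrays, against 154 and 192 on the Hdc+/+ arrays, with Laptm5 at 0.59 (SE 0.18), Cd48 at 0.48 (SE 0.17) and Coro1a at 0.41 (SE 0.16). Of the 6 eosinophil markers measured (median 0.39), 4 were higher without overlap, where 21.5% of all genes were, and 2 overlapped. Epx, the eosinophil peroxidase, differed by 0.39 (SE 0.16), Siglecf, a lectin of eosinophils, by 0.60 (SE 0.26) and Il5ra, which encodes the interleukin-5 receptor alpha chain, by 0.42 (SE 0.23).

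The mast cell list (9 genes, median 0.58) read highest on Hdc-/- array 1, and its median became -0.36 with that array left out and 1.38 with Hdc-/- array 2 left out. Kit, the stem cell factor receptor, differed by 0.74 (SE 0.28), and the mast cell protease genes Mcpt1 by 3.50 (SE 1.47) and Mcpt4 by -1.14 (SE 0.49). The squamous list (15 of 16 genes measured) had a median of -0.88, with Krt4 at -2.15 (SE 0.21, adjusted p = 0.189), Flg at -1.35 (SE 0.20) and Krt1 at -2.17 (SE 0.45). In the glandular list (10 genes, median -0.02), 5 genes differed upward and 5 downward. Cblif differed by 1.07 (SE 0.25), Pgc by 0.64 (SE 0.25) and Muc6 by 1.57 (SE 0.96). Muc6 overlapped, reading 11.94 and 8.90 on the Hdc-/- arrays, against 8.40 and 9.30 on the Hdc+/+ arrays. Red cell markers could not be followed, because 1 of 8 had a probe set with a single symbol, Slc4a1 (-0.16, SE 0.21). The hepatocyte list (8 genes, median -4.20) had its smallest p-values at differences of -7.02 for Alb (SE 0.42, adjusted p = 0.0611), -7.61 for Serpina1c (SE 0.56, adjusted p = 0.0611) and -4.45 for Ahsg (SE 0.63, adjusted p = 0.247). Of the 69 markers measured, 0 passed over all genes by limma. At the unadjusted threshold 10 were higher and 19 lower, where 3.68% and 4.87% of all genes were, and 8 of the 19 were the hepatocyte markers and 11 the squamous ones.

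**Figure D5:**
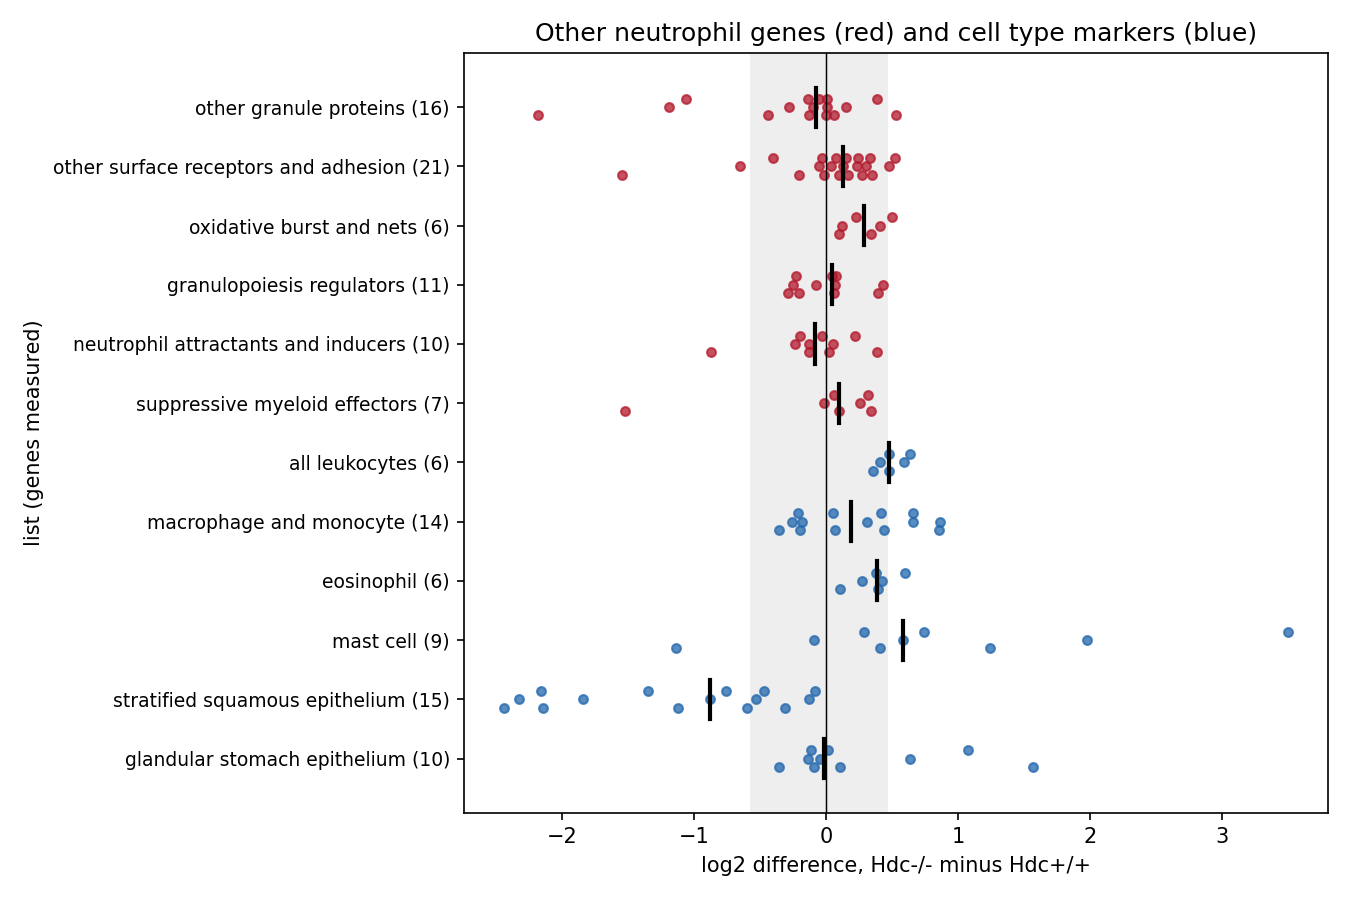
Log2 differences, Hdc-/- minus Hdc+/+ (horizontal axis), of single genes in lists of other neutrophil genes (red) and of cell type markers (blue); black bars mark list medians and the grey band the 5th to 95th percentile of all genes. Leukocyte markers sit above 0 (median 0.48), squamous markers below (median -0.88), and the medians of the red neutrophil lists lie between -0.08 and 0.28, the last that of the oxidative burst list.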

How the data were processed

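Each of the 4 stomach samples gave 1 array. The authors deposited log2 probe set values. The submitters' processing notes list RMA, Affymetrix Power Tools and oligo, with no versions or roles; the summarisation level, any filter and the genome build are not stated there. Of 41345 probe sets, 23521 had 1 gene symbol in the platform annotation, 1814 several and 16010 none. For genes with several probe sets the brightest on average was kept, leaving 22180 genes, with no filter.

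Hdc-/- was compared with Hdc+/+ by limma 3.58.1 in R 4.3.3 (lmFit, eBayes, no covariate, 2 residual and 3.62 prior degrees of freedom), with Benjamini-Hochberg adjustment over all genes at 0.05. The code was run on data simulated from the fit's own prior, which follow its model by construction. That run says nothing of the members. Differences are Hdc-/- minus Hdc+/+ on the log2 scale with moderated SE, and n = 2 per genotype. The number of arrays limits the precision. Genes named are Hdc, the 10 members, the 3 genes with the smallest p in each list, and the 3 nearest profiles of members ranging over more than 1; others are said to be chosen after their values were seen. The members and lists were chosen with earlier results of these data known. Some listed genes without a usable probe set are not reported here. Alternatives changed the dim-gene filter, probe set averaging, normalization, prior, replicate block, arrays, features tested and call rule.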

Additional observations from a re-analysis of the deposited data

How the results depend on the processing

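The 10 member differences were recomputed under 13 alternatives, which gave 118 values. Of these, 112 kept their direction and 0 passed the adjusted threshold of limma, the lowest adjusted p being 0.269 for Ltf with the dimmer 50% of genes left out. The 6 that changed sign all left out an array: Camp (0.00245), S100a9 (0.032) and Ly6g (0.0553) without Hdc-/- replicate 1, Ngp (0.0950) and Ly6g (0.370) without Hdc+/+ replicate 1, and Camp (0.0658) without Hdc+/+ replicate 2. With arrays left out, the lowest values of these genes were -0.19 (Camp), -0.66 (S100a9), -0.62 (Ly6g) and -0.54 (Ngp). The count of members higher at an unadjusted p under 0.05 ran from 2 to 3 with arrays left out, and that of members lower from 0 to 1, where 1.59% to 4.62% of all genes were higher and 3.16% to 4.84% lower.

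Over all genes, limma called 1 higher and 0 lower. It called 3 higher and 2 lower with a trended and robust prior, 1 higher and 6 lower with the replicate number as a block, and 0 higher when every probe set was tested. With arrays left out, the counts ran from 0 to 3 higher and from 0 to 158 lower, the 158 without Hdc+/+ replicate 1. An unadjusted p under 0.05 with a log2 difference of at least 1 gave 107 higher and 372 lower. Arrays of the same number correlated at -0.119 in their deviations from genotype means, so a crossed replicate block was added after seeing the data, which called 0 higher and 0 lower. The block changed no member's call.

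Granule minus surface, 0.14, was -0.17 with Ltf left out and 0.32 with Itgam left out, both also chosen after seeing the data. With arrays left out it ran from -0.04 to 0.33. It lay between 0.140 and 0.146 under the other normalizations and with probe sets averaged. The causes were not tested. Most members are dim, and signal over background could not be set.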

Other observations

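The resistin-like family of Retnlg was looked up after its values were seen, because its genes are similar in sequence. Retnlg was alone of the 4 in reading higher on the Hdc-/- arrays. Retn, the gene of resistin, an adipocyte hormone in mice, read 4.34 and 5.85 on the Hdc-/- arrays, against 6.30 and 6.99 on the Hdc+/+ arrays, a log2 difference of -1.54 (SE 0.52, limma adjusted p = 0.518). Retnla, a product of alternatively activated macrophages in mice, read 6.56 and 5.03 on the Hdc-/- arrays, against 6.96 and 7.06 on the Hdc+/+ arrays, a difference of -1.21 (SE 0.48, adjusted p = 0.581). Retnlb, made by goblet cells, read 3.01 and 3.29 on the Hdc-/- arrays, against 3.48 and 4.79 on the Hdc+/+ arrays, a difference of -0.98 (SE 0.43, adjusted p = 0.602). None passed over all genes, and whether Retnlg differs from its relatives in its response was not tested.

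Of the Ly6 genes related to Ly6g, also looked up after seeing the data, the monocyte gene Ly6c2 differed by -0.26 (SE 0.34), Ly6c1 by -0.34 (SE 0.18) and Ly6i by -0.13 (SE 0.17). Ly6e, which many cell types express, read 7.44 and 8.11 on the Hdc-/- arrays, against 9.41 and 9.79 on the Hdc+/+ arrays, a difference of -1.83 (SE 0.28, adjusted p = 0.256).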
